A study of Mus musculus with 9 samples.

Results

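The immunoglobulin heavy chain V and J segments were taken as every row of the deposited expression table whose gene symbol begins with Ighv or Ighj followed by a digit. The rule found 101 of the 32761 genes in the table, 97 V segments and 4 J segments. Expression was measured by RNA sequencing of 9 mouse tumour samples, 3 in each of 3 groups. The tumours grew in the liver of mice from Hepa1-6-luc, a luciferase-expressing mouse hepatoma line, so all groups share 1 tumour line, and the label gives no strain for the hosts. Animals had been allocated at random, and tumours were taken on day 14. Control is labelled with no agent. Lenvatinib+anti-PD1 received free Lenvatinib, an inhibitor of several receptor tyrosine kinases including VEGF receptors, and an antibody to PD-1, an inhibitory receptor of T cells. Co+Len@OVA+anti-PD1 received the same antibody with the drug carried in nanoclusters named Co+Len@OVA, where the labels do not spell out Co. Drug or nanoclusters (2 mg/mL) were injected into the tail vein every 3 days and the antibody at 50 µg per injection every 4 days. The study's other 3 groups, given OVA, Len@OVA or Co@OVA with the antibody, are not analysed here, so no difference below can be assigned to 1 agent.

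Heavy chain genes are assembled in developing B cells, where the RAG recombinase joins a V, a D and a J segment into 1 variable exon. The joined exon is transcribed together with a constant gene that sets the antibody class. Each B cell and its descendants normally express 1 such joined exon, so a bulk level of a V segment sums over the B cells and plasma cells that carry it, and plasma cells hold far more of this RNA than resting B cells do. In bulk tumour RNA, fewer cells of a type and less RNA per cell cannot be told apart.

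The sequences that matter most for the results are those of Ighv9-3, the V segment with the highest level, beside the other members of its family in the table, because near-identical segments can trade reads. They are the spliced coding bases on the minus strand of chromosome 12, from the GENCODE M21 transcripts on GRCm38 with the same Ensembl IDs as the table. Ighv9-3 lies at chr12:114140692-114141122, 711 kb upstream of the start of Ighj1, and its 2 exons hold a leader and the V region. The last 294 of the 351 coding bases are shown, which leaves out the leader. Capitals in Ighv9-3 mark the 7 bases at which it differs there from all 3 relatives, and capitals in the others mark bases that differ from Ighv9-3.
Ighv9-3: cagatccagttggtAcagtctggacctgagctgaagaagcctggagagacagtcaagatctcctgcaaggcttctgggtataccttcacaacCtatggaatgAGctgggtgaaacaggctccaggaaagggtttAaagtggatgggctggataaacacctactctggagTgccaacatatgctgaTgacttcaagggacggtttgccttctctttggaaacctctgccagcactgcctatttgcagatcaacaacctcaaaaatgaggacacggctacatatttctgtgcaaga
Ighv9-1: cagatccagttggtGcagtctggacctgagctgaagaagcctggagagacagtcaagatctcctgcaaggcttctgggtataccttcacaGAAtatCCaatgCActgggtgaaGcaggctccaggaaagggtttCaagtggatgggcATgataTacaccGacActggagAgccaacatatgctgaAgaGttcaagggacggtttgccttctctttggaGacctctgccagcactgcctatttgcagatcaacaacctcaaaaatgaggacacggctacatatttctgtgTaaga
Ighv9-2: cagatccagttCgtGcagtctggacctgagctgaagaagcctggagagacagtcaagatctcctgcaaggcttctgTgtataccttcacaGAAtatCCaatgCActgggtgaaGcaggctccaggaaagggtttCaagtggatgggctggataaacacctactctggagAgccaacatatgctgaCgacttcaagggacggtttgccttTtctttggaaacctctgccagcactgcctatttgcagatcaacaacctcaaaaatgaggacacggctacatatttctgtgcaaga
Ighv9-4: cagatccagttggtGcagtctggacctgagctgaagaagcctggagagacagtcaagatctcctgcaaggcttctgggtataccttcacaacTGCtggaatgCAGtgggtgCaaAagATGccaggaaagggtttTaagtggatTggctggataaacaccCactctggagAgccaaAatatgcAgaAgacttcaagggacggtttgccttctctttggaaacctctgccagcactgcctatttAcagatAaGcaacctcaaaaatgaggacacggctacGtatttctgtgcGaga
Over all 351 bases Ighv9-2 was 94.3% identical to Ighv9-3, with 20 differing bases, Ighv9-1 was 93.2% identical with 24, and Ighv9-4 was 90.9% identical with 32. Across the table, 44 of the 97 V segments had another one at least 95% identical, 75 had one at least 90% identical, and the median identity to the nearest segment was 94.6%. Levels of single V segments are therefore uncertain where the authors' counting could split reads between relatives, and Ighv9-3 has no relative in the table at 95% or more.

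A further set of V segments carries the results on single libraries and groups. Ighv6-3, at chr12:114391712-114392169, stood out in the Co+Len@OVA+anti-PD1 group. Ighv2-9-1, at chr12:113769850-113770302, was among the segments that differed most between libraries of that group on the log2(FPKM + 0.5) scale. Ighv1-34, at chr12:114851190-114851660, led 1 Control library, and Ighv1-9, at chr12:114583569-114584002, was high in the other Control libraries. The last 294 coding bases are shown for each, and capitals mark the last in-frame cysteine codon, which opens the junction with D and J in the joined exon.
Ighv6-3: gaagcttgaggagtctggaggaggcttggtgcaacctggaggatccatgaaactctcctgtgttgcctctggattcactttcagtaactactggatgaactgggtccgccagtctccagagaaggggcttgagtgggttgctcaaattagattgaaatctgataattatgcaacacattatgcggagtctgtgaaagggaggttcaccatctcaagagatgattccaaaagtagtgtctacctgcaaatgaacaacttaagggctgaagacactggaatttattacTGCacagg
Ighv2-9-1: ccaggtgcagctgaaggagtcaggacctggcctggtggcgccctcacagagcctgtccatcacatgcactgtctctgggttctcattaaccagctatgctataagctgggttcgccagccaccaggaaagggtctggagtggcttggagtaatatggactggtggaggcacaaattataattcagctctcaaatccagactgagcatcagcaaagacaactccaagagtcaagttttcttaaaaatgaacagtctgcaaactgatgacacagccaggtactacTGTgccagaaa
Ighv1-34: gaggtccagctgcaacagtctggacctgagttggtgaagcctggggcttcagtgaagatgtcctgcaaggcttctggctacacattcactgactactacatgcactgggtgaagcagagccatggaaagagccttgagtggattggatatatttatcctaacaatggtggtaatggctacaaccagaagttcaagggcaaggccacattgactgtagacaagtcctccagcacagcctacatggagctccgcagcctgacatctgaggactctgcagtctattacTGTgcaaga
Ighv1-9: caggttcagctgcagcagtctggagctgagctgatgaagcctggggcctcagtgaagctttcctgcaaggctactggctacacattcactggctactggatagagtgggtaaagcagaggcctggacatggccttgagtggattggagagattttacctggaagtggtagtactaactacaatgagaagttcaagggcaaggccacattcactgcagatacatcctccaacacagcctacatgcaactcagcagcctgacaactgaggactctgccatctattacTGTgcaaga
The 4 J segments, shown as coding bases with the codons for tryptophan, glycine, any residue and glycine in capitals, are short and close together, from chr12:113428514-113428567 for Ighj4 to chr12:113429781-113429833 for Ighj1.
Ighj1: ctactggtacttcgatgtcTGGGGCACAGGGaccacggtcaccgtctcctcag
Ighj2: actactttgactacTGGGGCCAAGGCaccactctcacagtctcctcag
Ighj3: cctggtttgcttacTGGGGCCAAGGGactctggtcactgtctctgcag
Ighj4: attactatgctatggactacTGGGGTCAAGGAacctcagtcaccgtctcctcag
All 101 rows matched GENCODE M21 by ID and symbol, which annotates 189 segments under the same name pattern. Of the 97 V rows, 93 are annotated as V genes and 4 as V pseudogenes (Ighv1-2, Ighv1-21, Ighv1-62 and Ighv1-83).

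Values are FPKM, fragments scaled by gene length and library total, as the authors deposited them, so levels are per length and no read depth can be given. Column totals ranged from 3.32e+05 to 3.73e+05 FPKM, 23575 to 26298 genes were above 0 in a library, and the smallest V value above 0 ranged from 0.0371 to 0.0811 FPKM. Some libraries stood apart. In Co+Len@OVA+anti-PD1 and Control the third library sat between libraries 1 and 2 for the V segments on which those differed most. This held for 5 of 5 segments over 4-fold apart in Co+Len@OVA+anti-PD1 and 7 of 7 in Control. In Lenvatinib+anti-PD1 0 were that far apart, so V segments could not show such a pattern there. The segments over 4-fold apart were picked for a wide gap, into which an independent library can also fall. No share over all genes was taken, so independence was not tested. If library 3 of a group is not an independent sample, p-values from 9 libraries are too small, so counts of calls are also given for libraries 1 and 2 alone. Markers of other tissues moved between libraries. The summed level of 7 adipocyte markers was 208, 35.5 and 119 FPKM in Co+Len@OVA+anti-PD1, 44.6, 546 and 247 FPKM in Lenvatinib+anti-PD1, and 0.788 to 9.49 FPKM in Control, and 5 striated muscle markers summed to 3621 and 1443 FPKM in Lenvatinib+anti-PD1 libraries 2 and 3 against 1.21 to 37.9 FPKM in the other 7. In Lenvatinib+anti-PD1 library 3 lay between libraries 1 and 2 in both sums (24.9, 3621 and 1443 FPKM for muscle), as it did in Co+Len@OVA+anti-PD1. In Control library 3 was the highest in both, at 9.49 and 34.5 FPKM. Hepatocyte markers were present in all libraries, from 749 FPKM in Co+Len@OVA+anti-PD1 library 1 to 4957 FPKM in Control library 1. All 8 fell in Co+Len@OVA+anti-PD1 against Control, where 12.7% of all genes fell (2 of the 8 with libraries 1 and 2 alone). The part of these tissues in the results below was not tested.

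The summed level of the 97 V segments was 138, 151 and 146 FPKM in the Co+Len@OVA+anti-PD1 libraries. It was 7.38, 11.5 and 9.59 FPKM in Lenvatinib+anti-PD1. In Control it was 36.1, 74.8 and 66.5 FPKM. The 3 groups did not overlap, and the order was Co+Len@OVA+anti-PD1, Control, Lenvatinib+anti-PD1. The means were 145 ± 6.51, 59.2 ± 20.4 and 9.49 ± 2.06 FPKM (SD, n = 3), a ratio of 2.45 for Co+Len@OVA+anti-PD1 over Control and of 0.160 for Lenvatinib+anti-PD1 over Control. With libraries 1 and 2 alone the means were 144, 55.5 and 9.44 FPKM in the same order. The ratio of Co+Len@OVA+anti-PD1 to Lenvatinib+anti-PD1 was 15.3. Because 3 against 3 libraries are too few for an exact permutation test to reach 0.05, no test of the sums is given.

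**Figure D1:**
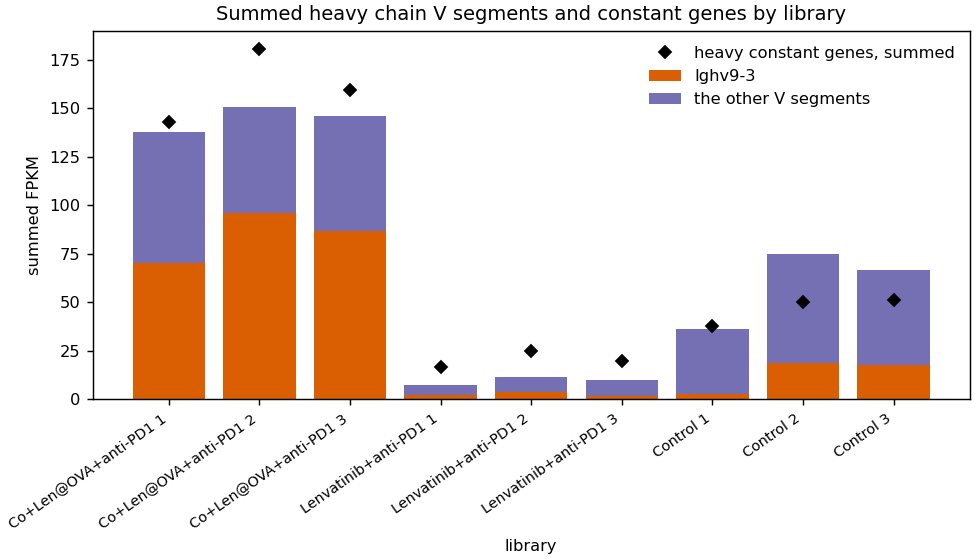
Bars give the summed FPKM of the V segments in each of the 9 libraries, split into Ighv9-3 and the other V segments, and diamonds give the summed FPKM of the 8 heavy constant genes. Ighv9-3 fills 51.0% to 63.6% of the bar in Co+Len@OVA+anti-PD1, and without it that group (54.8 to 67.5 FPKM) overlaps Control (33.7 to 56.1 FPKM).

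Much of the difference between Co+Len@OVA+anti-PD1 and Control lay in 1 segment. Without Ighv9-3, the other 96 V segments summed to 67.5, 54.8 and 59.5 FPKM in Co+Len@OVA+anti-PD1 and to 33.7, 56.1 and 48.9 FPKM in Control. These ranges overlap, and the ratio of the means was 1.31 in place of 2.45. In Lenvatinib+anti-PD1 the other V segments summed to 5.29, 7.98 and 7.94 FPKM, all below the lowest Control library, and the ratio of 0.153 to Control was close to that with Ighv9-3 included. Leaving out this segment was an alternative chosen after its values were seen.

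Fewer V segments were detected in Lenvatinib+anti-PD1. At 0.5 FPKM or more there were 3, 7 and 5 V segments in its libraries, against 30, 30 and 31 in Co+Len@OVA+anti-PD1 and 15, 26 and 28 in Control. Above 0 there were 21, 27 and 28 segments in Lenvatinib+anti-PD1, 60, 67 and 74 in Co+Len@OVA+anti-PD1, and 43, 69 and 66 in Control. Lenvatinib+anti-PD1 was lowest by both measures, while Co+Len@OVA+anti-PD1 and Control were apart at 0.5 FPKM and overlapped above 0. Of the 97 segments, 50 were listed at 0 in all Lenvatinib+anti-PD1 libraries, 13 in all Control libraries and 8 in all Co+Len@OVA+anti-PD1 libraries. A segment listed at 0 may still have been expressed below what these libraries could show. In all, 44 V segments were above 0 in every group and 7 in every library (Ighv1-26, Ighv1-50, Ighv1-81, Ighv3-6, Ighv5-9-1, Ighv6-3 and Ighv9-3). Segments above 0 in 1 group alone numbered 11 in Co+Len@OVA+anti-PD1, 6 in Control and 1 in Lenvatinib+anti-PD1, and none of these exceeded 1.22 FPKM.

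**Figure D2:**
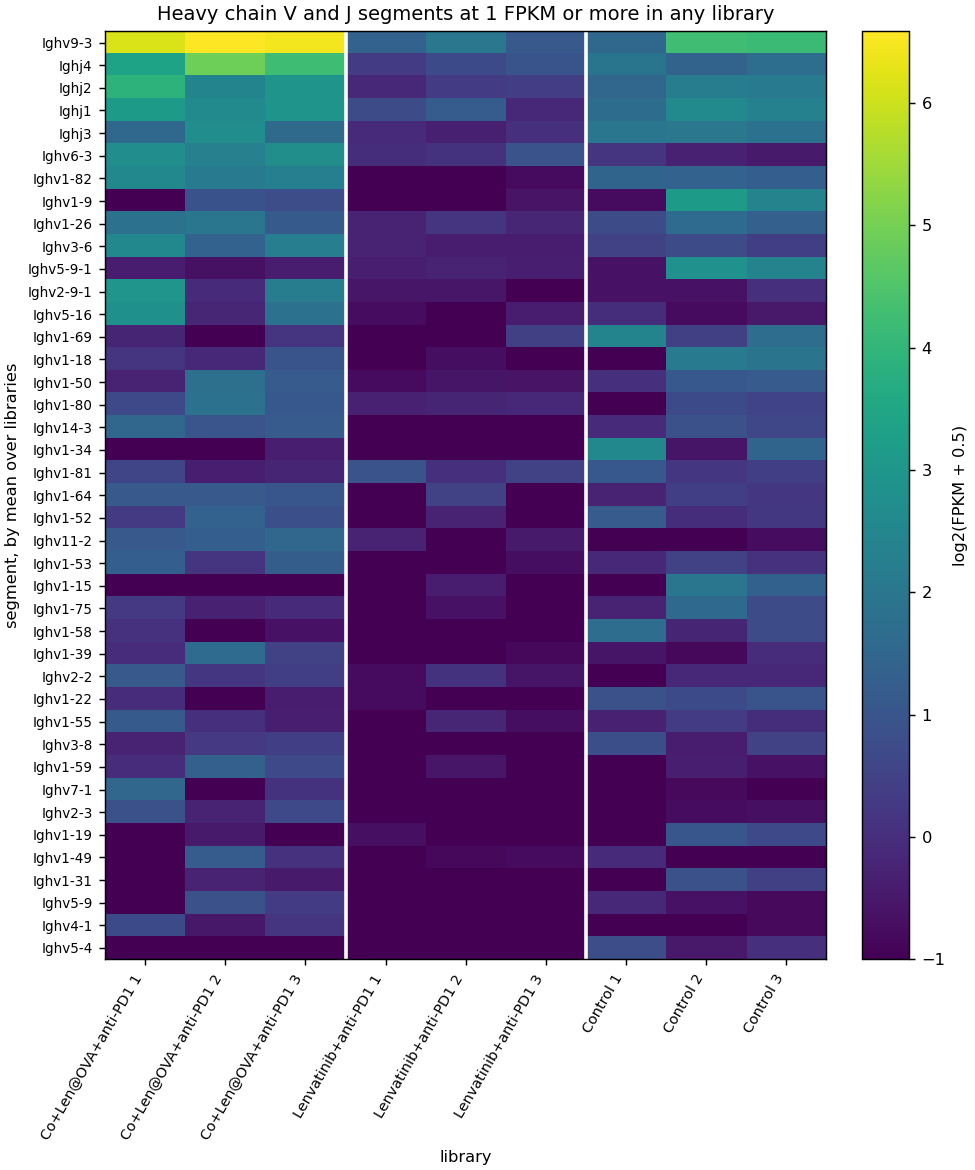
Each row is a V or J segment that reached 1 FPKM in any library (37 V and 4 J segments), each column a library, and the colour is log2(FPKM + 0.5). Ighv9-3 in the Co+Len@OVA+anti-PD1 columns is the brightest row, and the Lenvatinib+anti-PD1 columns are darkest, with 1 to 2 V segments at 1 FPKM or more per library.

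The spread over segments differed between groups. The leading V segment held 51.0%, 63.6% and 59.3% of the summed V level in the Co+Len@OVA+anti-PD1 libraries. It held 28.3%, 30.6% and 17.3% in Lenvatinib+anti-PD1, and 14.8%, 25.0% and 26.4% in Control. Shares in Co+Len@OVA+anti-PD1 were above every library of the other groups, whose shares overlapped. The leading segment was Ighv9-3 in 8 of 9 libraries and Ighv1-34 in Control library 1. As an effective number of segments, the inverse of the summed squared shares, the V level was spread over 2.97 ± 0.632 segments in Co+Len@OVA+anti-PD1, 9.08 ± 2.29 in Lenvatinib+anti-PD1 and 12.1 ± 2.46 in Control (SD, n = 3). Lenvatinib+anti-PD1 (7.28 to 11.7) overlapped Control (10.6 to 14.9). Without Ighv9-3 the order turned, with 23.7 ± 4.17 effective segments in Co+Len@OVA+anti-PD1, 13.1 ± 4.55 in Lenvatinib+anti-PD1 and 18.4 ± 5.01 in Control. The Control range (13.9 to 23.8) then overlapped those of Co+Len@OVA+anti-PD1 (19.2 to 27.4) and Lenvatinib+anti-PD1 (9.01 to 18.0).

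In the comparison of Co+Len@OVA+anti-PD1 with Control, which sets the nanoclusters and antibody against no labelled agent, V and J segments moved both ways. Segments from several families were higher, led among V segments by Ighv9-3, Ighv6-3 and Ighv11-2, and a few segments of the large Ighv1 family were lower. Fitted without a filter on low values, so that all 101 segments were tested, 11 rose and 3 fell in limma at an adjusted p under 0.05, where 7.81% and 5.09% of all 32761 genes did so. The median log2 fold change of the 101 segments was 0.15, against 0.04 over all genes. A segment can reach a mean of 0.5 FPKM over the 9 libraries through 1 group alone. Ighv11-2 did so, with means of 1.98 FPKM in Co+Len@OVA+anti-PD1, 0.188 in Lenvatinib+anti-PD1 and 0.0312 in Control. Counts with this filter are therefore no even match for their background, here and in the comparisons below. Where the mean over libraries had to reach 0.5 FPKM, 31 of the 101 segments were tested, and 9 rose and 2 fell, against a background of 20.9% and 12.7% of 15353 genes (33.6% in either direction). Without Control library 1 these counts were 6 and 6, without Control library 2 they were 7 and 4, and over all 9 libraries left out in turn they ran from 6 to 10 and from 1 to 6. Libraries 1 and 2 alone left 1 call, for Ighv6-3 (8 segments had an unadjusted p under 0.05). Over all genes the median log2 fold change was 0.13, and median-of-ratios scaling, which removes that shift, gave 2060 genes higher and 2817 lower in place of 3209 and 1946, with 6 segments higher and 2 lower. Upper quartile scaling gave 1642 and 2986 genes, and 7 and 2 segments. In 20 segments (19.8%) all 3 Co+Len@OVA+anti-PD1 libraries were above all 3 Control libraries, against 20.7% of all genes. In 4 (3.96%) all were below, against 10.3% of all genes. Neither share exceeded that of all genes.

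Ighv9-3 was at 70.2, 95.7 and 86.7 FPKM in Co+Len@OVA+anti-PD1. In Lenvatinib+anti-PD1 it was at 2.09, 3.52 and 1.66 FPKM, and in Control at 2.40, 18.7 and 17.6 FPKM. The first group was above all other libraries, and Control library 1 lay within the range of Lenvatinib+anti-PD1, far below the other Control libraries. It rose against Control (log2 fold change 3.07 ± 0.67 SE, adjusted p = 0.0109, limma), a ratio of means of 6.53. Leaving out Control library 1 gave 2.17 with an adjusted p of 0.00118, and libraries 1 and 2 alone gave 3.47 with an adjusted p of 0.132. The relatives shown above stayed low, since the family as a whole summed to 70.4, 96.8 and 87.7 FPKM in Co+Len@OVA+anti-PD1.

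Ighv6-3 was at 6.14, 4.40 and 6.26 FPKM in Co+Len@OVA+anti-PD1, at 0.505, 0.579 and 1.44 FPKM in Lenvatinib+anti-PD1 and at 0.633, 0.306 and 0.236 FPKM in Control. Every Co+Len@OVA+anti-PD1 library exceeded all the others, and the other groups overlapped. It rose against Control by a log2 fold change of 2.78 ± 0.28 (SE; limma adjusted p = 4.76e-04), and also with libraries 1 and 2 alone (2.58, adjusted p = 0.0436). Ighv11-2 belongs to a family that in mice is known from B-1 cells, a B cell subset that makes antibodies to self lipids. Its level was 1.66, 1.93 and 2.35 FPKM in Co+Len@OVA+anti-PD1, 0.334, 0 and 0.232 FPKM in Lenvatinib+anti-PD1, and 0, 0 and 0.0935 FPKM in Control, so the first group stood clear of the rest. It rose against Control (2.22 ± 0.23, adjusted p = 4.69e-04, limma), with an adjusted p of 0.0742 in libraries 1 and 2 alone.

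More rises were in other families. Ighv3-6 was at 5.27, 2.14 and 4.22 FPKM in Co+Len@OVA+anti-PD1 against 0.884, 1.17 and 0.822 FPKM in Control, without overlap (1.52 ± 0.27, adjusted p = 0.00455, limma). Ighv1-82, which is 95.4% identical to Ighv1-80, was at 5.29, 3.91 and 4.38 FPKM against 2.24, 2.10 and 1.92 FPKM, again without overlap (0.95 ± 0.13, adjusted p = 0.00185, limma). Both calls held when any 1 of the 9 libraries was left out. Ighv14-3 was at 2.37, 1.51 and 1.78 FPKM against 0.462, 1.35 and 1.02 FPKM, where the groups came close but did not overlap (0.76 ± 0.25, adjusted p = 0.0469, limma). That call was lost on leaving out any library other than Control 2, with an adjusted p of 0.0515 to 0.135, and in the fit without a filter (0.0802).

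Ighv1-26, among the most abundant V segments, was at 3.08, 3.42 and 1.74 FPKM in Co+Len@OVA+anti-PD1 and 1.19, 2.62 and 2.02 FPKM in Control. The groups overlapped, and its log2 fold change of 0.41 ± 0.29 did not pass (adjusted p = 0.281, limma). Ighv1-50 (0.335, 2.98 and 1.78 FPKM against 0.514, 1.64 and 1.75 FPKM) and Ighv1-80 (1.10, 3.07 and 1.65 FPKM against 0, 1.14 and 0.950 FPKM) also overlapped and did not pass, with adjusted p-values of 0.846 and 0.0946. Ighv1-18 was at 0.630, 0.391 and 1.48 FPKM against 0, 3.75 and 3.28 FPKM, with Control library 1 apart from the other two, and did not pass (adjusted p = 0.514).

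**Figure D3:**
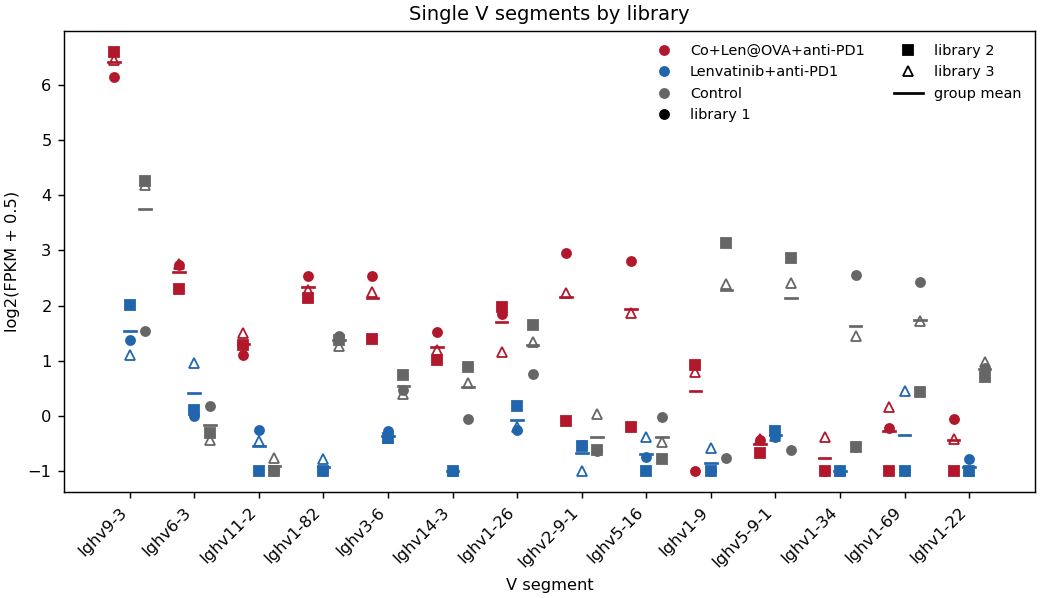
Points give log2(FPKM + 0.5) of 14 V segments in each library, with circles for library 1, squares for library 2 and open triangles for library 3, and short lines give the log2 of the group's mean FPKM + 0.5. Ighv9-3, Ighv6-3 and Ighv11-2 separate Co+Len@OVA+anti-PD1 from the other groups, while Ighv1-9, Ighv5-9-1 and Ighv1-34 split the Control libraries.

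The segments that fell in Co+Len@OVA+anti-PD1 were Ighv1-22 and Ighv1-69. Ighv1-22 was at 0.468, 0 and 0.251 FPKM in Co+Len@OVA+anti-PD1, 0.0850, 0 and 0 FPKM in Lenvatinib+anti-PD1, and 1.33, 1.14 and 1.46 FPKM in Control. The Control libraries lay above all others, and the fall was by 1.34 ± 0.25 on the log2 scale (adjusted p = 0.00580, limma), a call that held when any 1 of the 9 libraries was left out. Ighv1-69 was at 0.355, 0 and 0.625 FPKM against 4.86, 0.845 and 2.81 FPKM in Control. The groups did not overlap although Control library 2 was close, and the fall was by 1.88 ± 0.60 (adjusted p = 0.0434, limma). It held on leaving out Control 2 or Lenvatinib+anti-PD1 3 and was lost on leaving out any of the other 7 libraries, with adjusted p-values of 0.0554 to 0.116. Ighv1-22 is 96.6% identical to Ighv1-34, and Ighv1-69 is 97.2% identical to Ighv1-50, so the split of reads among these is uncertain. In the fit without a filter the other segments that fell were Ighv5-4 and Ighv1-7, named after their values were seen, while Ighv1-69 did not pass there (adjusted p = 0.0796).

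Control library 1 had other high segments than Control libraries 2 and 3, whose 3 highest V segments were Ighv9-3, Ighv1-9 and Ighv5-9-1. Ighv1-34 was at 5.36, 0.174 and 2.23 FPKM in the Control libraries and at 0 in 5 of the other 6, with 0.270 FPKM in Co+Len@OVA+anti-PD1 library 3. Ighv1-9 was at 0.0889, 8.30 and 4.71 FPKM in Control, and at 0, 1.39 and 1.24 FPKM in Co+Len@OVA+anti-PD1. Ighv5-9-1 was at 0.148, 6.72 and 4.79 FPKM in Control and between 0.130 and 0.329 FPKM in the other 6 libraries. Library 1 was high where library 2 was low, and the reverse, with library 3 in between each time. None of these passed against Control over 9 libraries, with adjusted p-values of 0.0575 for Ighv1-34, 0.298 for Ighv1-9 and 0.0755 for Ighv5-9-1 in Co+Len@OVA+anti-PD1 (limma). Without Control library 2 the value for Ighv1-34 was -2.79 (adjusted p = 0.00191), and without Control library 1 Ighv5-9-1 was at -3.13 (adjusted p = 7.58e-05) and Ighv1-9 at -2.52 (adjusted p = 0.0153).

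In the same way, Ighv2-9-1 and Ighv5-16 set apart libraries of the Co+Len@OVA+anti-PD1 group. Ighv2-9-1 was at 7.19, 0.444 and 4.16 FPKM there, at 0.191, 0.182 and 0 FPKM in Lenvatinib+anti-PD1 and at 0.141, 0.148 and 0.521 FPKM in Control. Ighv5-16 was at 6.52, 0.375 and 3.13 FPKM there, at 0.0959, 0 and 0.264 FPKM in Lenvatinib+anti-PD1 and at 0.493, 0.0858 and 0.220 FPKM in Control. Library 2 lay within the range of Control for both, while libraries 1 and 3 were high. Ighv2-9-1 passed against Control (2.11 ± 0.68, adjusted p = 0.0456, limma) and kept the call when Co+Len@OVA+anti-PD1 library 2 was left out (adjusted p = 0.00110). Leaving out any other of the 9 libraries ended it, with adjusted p-values of 0.0647 to 0.139, as did the fit without a filter (adjusted p = 0.0838). Ighv5-16 did not pass (1.91 ± 0.67, adjusted p = 0.0577).

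The comparison of Lenvatinib+anti-PD1 with Control, which sets free drug and antibody against no labelled agent, went 1 way among the calls. No V or J segment rose, and the segments that fell included Ighv1-82, 3 J segments and several Ighv1 members. Fitted without a filter, 10 of the 101 segments fell and 0 rose, where 3.77% of all genes fell and 5.31% rose (limma, adjusted p under 0.05). The median log2 fold change of the 101 was -0.25 against 0.00 over all genes. With the filter, 11 of 31 segments fell, against 9.87% of 15353 genes, and 0 rose, against 13.8% (23.7% of genes passed in either direction). The 31 include segments such as Ighv1-58 that passed the filter through Control, with a mean of 1.43 FPKM there and 0 in Lenvatinib+anti-PD1. Over all genes, 2120 were higher and 1516 lower, which became 1821 and 1835 with median-of-ratios and 1290 and 2084 with upper quartile scaling, while 12 segments fell and 0 rose under both. Libraries 1 and 2 alone left 1 call, for Ighv1-82 (8 segments had an unadjusted p under 0.05). In 24 of the 101 segments all Lenvatinib+anti-PD1 libraries were below all Control libraries (10.4% of all genes were), and in 11 of these 24 the former were all listed at 0. In 1 segment they were all above (16.1% of all genes were).

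Ighv1-82 gave the firmest call. It was listed at 0, 0 and 0.0793 FPKM in Lenvatinib+anti-PD1 against 2.24, 2.10 and 1.92 FPKM in Control, with little spread in either group. It fell by 2.30 ± 0.13 on the log2 scale (adjusted p = 5.09e-05, limma), and by 2.42 with libraries 1 and 2 alone (adjusted p = 0.0318). Ighv14-3 was listed at 0 in all Lenvatinib+anti-PD1 libraries and fell by 1.48 ± 0.25 (adjusted p = 0.00492, limma). Ighv1-22, given above, fell by 1.78 ± 0.25 (adjusted p = 0.00231, limma). All 3 calls held with any 1 library left out.

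Weaker calls depended on single libraries. Ighv1-26 was at 0.337, 0.633 and 0.374 FPKM in Lenvatinib+anti-PD1, below every Control library, and fell by 1.33 ± 0.29 (adjusted p = 0.0128, limma). That call was lost without Lenvatinib+anti-PD1 library 3 (adjusted p = 0.0515). Ighv1-58 was listed at 0 in all 3 against 2.77, 0.357 and 1.16 FPKM in Control, and Ighv1-75 was at 0, 0.144 and 0 FPKM against 0.332, 2.53 and 1.16 FPKM. Neither overlapped, and their falls of 1.74 ± 0.47 and 1.57 ± 0.42 each had an adjusted p of 0.0313 (limma). The Ighv1-58 call held without Co+Len@OVA+anti-PD1 1 or 2 or Control 1 or 2, and reached an adjusted p of 0.0546 to 0.0904 without one of the other 5 libraries. The Ighv1-75 call held without Co+Len@OVA+anti-PD1 1 or 2 or Control 1, and reached 0.0542 to 0.0987 without one of the other 6. Ighv1-69, at 0, 0 and 0.862 FPKM, fell by 2.04 ± 0.60 (adjusted p = 0.0416, limma) although library 3 lay above Control library 2, and the call held only without Co+Len@OVA+anti-PD1 2, Lenvatinib+anti-PD1 3 or Control 2 (up to 0.121 without the others). Ighv3-6, at 0.328, 0.262 and 0.254 FPKM, fell by 0.89 ± 0.27 (adjusted p = 0.0435, limma), which held only without Co+Len@OVA+anti-PD1 1 or 2 (0.0564 to 0.123 without the others). In the fit without a filter none of Ighv1-58, Ighv1-75, Ighv1-69 and Ighv3-6 passed in this comparison (adjusted p = 0.0575, 0.0581, 0.0782 and 0.0840).

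Ighv9-3 did not pass between Lenvatinib+anti-PD1 and Control, at a log2 fold change of -1.83 ± 0.67 (adjusted p = 0.0823, limma), and the groups overlapped. Without Control library 1 the value was -2.72, with an adjusted p of 5.01e-04. Ighv6-3 and Ighv11-2, which rose in Co+Len@OVA+anti-PD1, did not differ detectably here, with log2 fold changes of 0.55 ± 0.28 and 0.35 ± 0.23 and adjusted p-values of 0.197 and 0.297.

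Set directly against each other, the groups that both received the antibody differed in 1 direction among the calls. This comparison sets the nanoclusters against free Lenvatinib and shares its libraries with the comparisons above, so its values are not independent of them. Segments of several families rose in Co+Len@OVA+anti-PD1, as did all 4 J segments. Without a filter, 24 of the 101 segments rose and 0 fell, where 6.52% of all genes rose and 5.25% fell (limma, adjusted p under 0.05), and the median log2 fold change of the 101 was 0.46 against 0.02 over all genes. With the filter, 17 of 31 rose, against 17.3% of genes, and 0 fell, against 12.0% (29.4% of genes passed in either direction). The 31 include segments that passed the filter only through Co+Len@OVA+anti-PD1. Ighv5-16 is an example, with means of 3.34 FPKM there, 0.120 in Lenvatinib+anti-PD1 and 0.266 in Control. Over all genes 2657 were higher and 1850 lower, which became 1991 and 2318 with median-of-ratios and 1922 and 1977 with upper quartile scaling, while 17 segments rose and 0 fell under both. Libraries 1 and 2 alone left 3 calls, Ighv1-82, Ighv6-3 and Ighj4 (13 segments had an unadjusted p under 0.05). In 44 segments all Co+Len@OVA+anti-PD1 libraries were above all Lenvatinib+anti-PD1 libraries (20.9% of all genes were), 16 of them with the latter all listed at 0, and in 1, Ighv5-9-1, they were all below (12.5% of all genes were).

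On the log2(FPKM + 0.5) scale the largest rise was in Ighv9-3, at 4.90 ± 0.67 (adjusted p = 0.00142, limma). Its ratio of means was 34.8, and 3 segments listed at 0 in 2 of 3 Lenvatinib+anti-PD1 libraries had higher ratios, Ighv1-82 (171), Ighv1-39 (61.4) and Ighv1-53 (39.8). With libraries 1 and 2 alone it was 4.68 with an adjusted p of 0.0759. Ighv1-82 rose by 3.25 ± 0.13 (adjusted p = 3.86e-06), also with libraries 1 and 2 alone (3.34, adjusted p = 0.00858). Ighv6-3 rose by 2.24 ± 0.28 (adjusted p = 9.88e-04, and 0.0241 with libraries 1 and 2 alone). Ighv3-6 rose by 2.41 ± 0.27 (adjusted p = 4.94e-04), Ighv14-3 by 2.24 ± 0.25 (5.08e-04) and Ighv11-2 by 1.87 ± 0.23 (7.62e-04), and each call held with any 1 library left out. Ighv2-9-1 (2.39 ± 0.68, adjusted p = 0.0333) and Ighv5-16 (2.20 ± 0.67, adjusted p = 0.0406) passed as well, but held only without Co+Len@OVA+anti-PD1 2, Control 1 or Control 2, with adjusted p-values up to 0.112 and 0.124 without 1 of the other 6 libraries. Neither passed in the fit without a filter (adjusted p = 0.0606 and 0.0730).

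**Figure D4:**
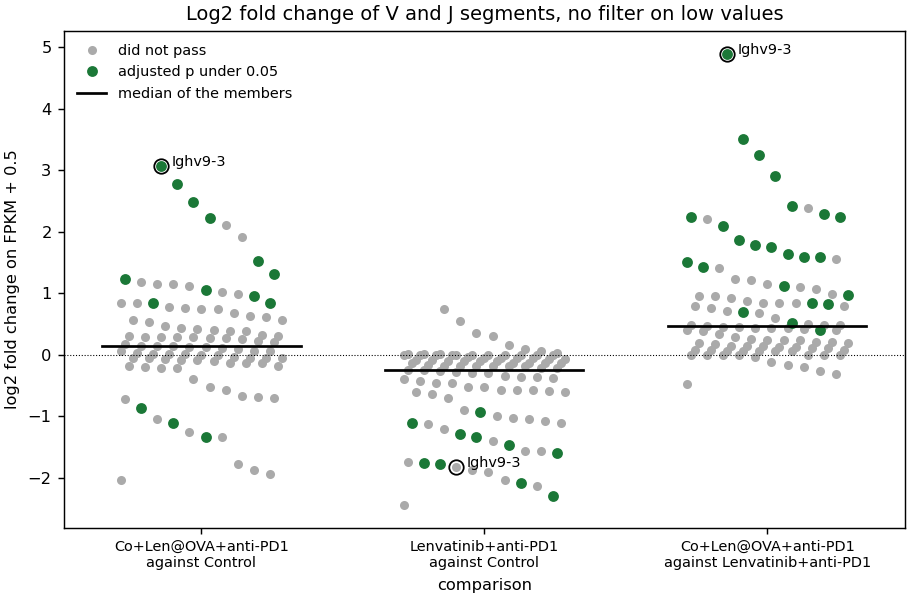
Each point is 1 of the 101 V and J segments, placed by its log2 fold change on FPKM + 0.5 in the fit without a filter, with green for an adjusted p under 0.05, a ring around Ighv9-3, and a line at the median of the segments. The medians are 0.15, -0.25 and 0.46 in the comparisons from left to right, and points lie on both sides of 0 in the first.

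By family, the groups differed in make-up as well as level. The Ighv1 family, with 49 of the 97 V segments, summed to 24.2, 32.2 and 26.5 FPKM in Co+Len@OVA+anti-PD1, 2.94, 5.14 and 4.81 FPKM in Lenvatinib+anti-PD1, and 26.4, 40.0 and 34.9 FPKM in Control. Co+Len@OVA+anti-PD1 and Control overlapped, with a ratio of means of 0.817, and both lay above Lenvatinib+anti-PD1. As a share of the summed V level this family held 17.6% to 21.4% in Co+Len@OVA+anti-PD1, 39.9% to 50.1% in Lenvatinib+anti-PD1 and 52.5% to 73.0% in Control, without overlap. The Ighv9 family held 51.1% to 64.3%, 18.8% to 33.5% and 7.97% to 27.1% in the same order. Ighv9-3 alone held 51.0% to 63.6% of the summed level in Co+Len@OVA+anti-PD1, which lowers the shares of all other families there. Family shares without Ighv9-3 were not compared.

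Small families differed too. Ighv6, with 2 segments, summed to 6.47, 4.93 and 6.76 FPKM in Co+Len@OVA+anti-PD1 and to 0.875, 0.545 and 0.342 FPKM in Control, a ratio of means of 10.3. Ighv3, with 5 segments, summed to 6.31, 3.08 and 5.51 FPKM against 2.16, 1.77 and 1.71 FPKM, a ratio of 2.64. Neither family overlapped between these groups. In Co+Len@OVA+anti-PD1 Ighv6-3 made up a mean of 5.60 of the 6.06 FPKM of Ighv6, and Ighv3-6 3.87 of the 4.97 FPKM of Ighv3. These family differences therefore largely repeat those of the single segments given above. Ighv5, with 9 segments, summed to 9.12, 3.69 and 5.42 FPKM against 2.75, 8.19 and 7.12 FPKM, which overlapped, and its leading member was Ighv5-16 in Co+Len@OVA+anti-PD1 and Ighv5-9-1 in Control, by mean level. Ighv2, with 8 segments, ran from 2.10 to 10.5 FPKM in Co+Len@OVA+anti-PD1 and from 0.141 to 1.48 FPKM in Control.

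**Figure D5:**
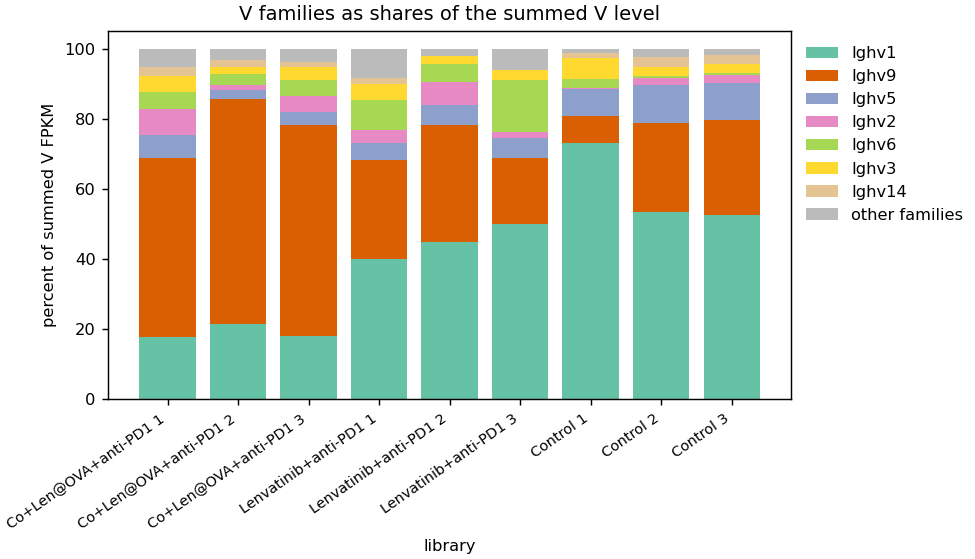
Stacked bars give each V family's percent of the summed V FPKM in each library. The Ighv9 share is 51.1% to 64.3% in Co+Len@OVA+anti-PD1, and Ighv1 is the largest family in every Control and Lenvatinib+anti-PD1 library.

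The J segments supply the end of the variable exon, and each is only 48 to 54 coding bases, shorter than the 150-base reads. Their FPKM may depend on how the authors' tools count reads over such short features, so levels are best compared between libraries for the same segment. Together the 4 summed to 38.9 ± 6.36 FPKM in Co+Len@OVA+anti-PD1, 3.31 ± 0.618 FPKM in Lenvatinib+anti-PD1 and 13.9 ± 1.86 FPKM in Control (SD, n = 3), in the order of the V segments.

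Ighj4 was at 10.0, 29.7 and 18.2 FPKM in Co+Len@OVA+anti-PD1, 0.764, 1.12 and 1.45 FPKM in Lenvatinib+anti-PD1, and 3.38, 2.16 and 2.85 FPKM in Control, with no overlap among the groups. It rose in Co+Len@OVA+anti-PD1 against Control (2.48 ± 0.36, adjusted p = 0.00215, limma) and against Lenvatinib+anti-PD1 (3.51 ± 0.36, adjusted p = 3.48e-04, and 0.0457 with libraries 1 and 2 alone), and did not pass between Lenvatinib+anti-PD1 and Control (-1.04 ± 0.36, adjusted p = 0.0710). Ighj2 was at 14.6, 4.89 and 7.15 FPKM, 0.407, 0.744 and 0.794 FPKM, and 2.32, 4.15 and 3.89 FPKM in the same order of groups. Its groups did not overlap either. Against Control it rose in Co+Len@OVA+anti-PD1 by 1.15 ± 0.37 (adjusted p = 0.0464, limma), a call that held only without Co+Len@OVA+anti-PD1 library 2 and otherwise reached 0.0516 to 0.116 (0.0865 in the fit without a filter). It fell in Lenvatinib+anti-PD1 by 1.77 ± 0.37 (adjusted p = 0.0124, limma).

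Ighj1 was at 8.36, 5.59 and 7.09 FPKM in Co+Len@OVA+anti-PD1, 1.17, 1.83 and 0.419 FPKM in Lenvatinib+anti-PD1, and 2.69, 5.64 and 4.59 FPKM in Control. The first and last groups overlapped (0.68 ± 0.36, adjusted p = 0.176, limma), and Ighj1 fell in Lenvatinib+anti-PD1 against Control by 1.60 ± 0.36 (adjusted p = 0.0167, and 0.0588 without Control library 3). Ighj3 was at 2.41, 6.08 and 2.59 FPKM, 0.438, 0.295 and 0.508 FPKM, and 3.48, 3.53 and 3.16 FPKM. Co+Len@OVA+anti-PD1 library 2 was above Control and the other two below it, for a log2 fold change of 0.00 ± 0.29 that became -0.13 with median-of-ratios scaling. Between Lenvatinib+anti-PD1 and Control Ighj3 fell by 2.09 ± 0.29 (adjusted p = 0.00216, limma). Within the Co+Len@OVA+anti-PD1 group the make-up of the J level turned with the library, Ighj2 leading in library 1 with 41.3% and Ighj4 in libraries 2 and 3 with 64.2% and 52.0%.

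The constant genes, which are spliced to these segments, were set beside the V level. The 8 heavy constant genes summed to 161 ± 19.0 FPKM in Co+Len@OVA+anti-PD1, 20.4 ± 4.03 FPKM in Lenvatinib+anti-PD1 and 46.5 ± 7.46 FPKM in Control (SD, n = 3). Against them the summed V level was lower in Lenvatinib+anti-PD1, where the ratio of V to constant was 0.444, 0.467 and 0.485, than in Co+Len@OVA+anti-PD1 (0.964, 0.833 and 0.917) or Control (0.954, 1.49 and 1.30). The Lenvatinib+anti-PD1 ratios lay below those of all other libraries. Of the 7 constant genes tested, 3 rose in Co+Len@OVA+anti-PD1 against Control, 4 fell in Lenvatinib+anti-PD1 against Control, and 6 rose in Co+Len@OVA+anti-PD1 against Lenvatinib+anti-PD1 (limma). With libraries 1 and 2 alone these counts were 0, 1 and 3. Among all 15353 genes tested, 20.9% rose and 12.7% fell in the first comparison, 13.8% and 9.87% in the second, and 17.3% and 12.0% in the third. The same shares are the background for the gene lists below.

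Constant genes did not all follow the V level. Ighm, which encodes the IgM heavy chain, was at 87.9, 41.9 and 62.8 FPKM in Co+Len@OVA+anti-PD1, 9.67, 15.6 and 11.5 FPKM in Lenvatinib+anti-PD1, and 6.93, 10.3 and 11.4 FPKM in Control. It rose in Co+Len@OVA+anti-PD1 against Control (2.65, adjusted p = 7.34e-04, limma) and did not pass between Lenvatinib+anti-PD1 and Control (0.35, adjusted p = 0.431). Ighg2c, a class-switched IgG heavy chain, was at 33.9, 98.2 and 65.7 FPKM, 2.63, 2.98 and 3.01 FPKM, and 17.9, 16.8 and 18.8 FPKM, with no overlap. It rose against Control in Co+Len@OVA+anti-PD1 (1.73, adjusted p = 0.00569) and fell in Lenvatinib+anti-PD1 (-2.44, adjusted p = 0.00183). Ighg1 was at 4.37 to 4.54 FPKM, 1.12 to 1.44 FPKM and 5.15 to 5.45 FPKM in the same order of groups, and fell in Lenvatinib+anti-PD1 against Control (-1.68, adjusted p = 3.16e-05). Igha, for IgA, was at 11.0, 18.1 and 15.0 FPKM in Co+Len@OVA+anti-PD1 and at 4.40, 14.0 and 11.5 FPKM in Control, which overlapped, and it fell in Lenvatinib+anti-PD1 against Control (-1.69, adjusted p = 0.0200). In Lenvatinib+anti-PD1 the IgM gene made up 58.1% to 63.5% of the heavy constant level, against 18.3% to 22.2% in Control, while in Co+Len@OVA+anti-PD1 it went from 61.5% in library 1 to 23.2% in library 2. In that library 1 Ighv2-9-1, Ighv5-16 and Ighj2 were highest, and in library 2 Ighv9-3, Ighj4 and Ighg2c were.

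Markers of the cells that express heavy chains were low. Of 14 B cell markers, 5 were tested, with 1 rise in Co+Len@OVA+anti-PD1 against Control, 0 calls in Lenvatinib+anti-PD1 against Control, and 4 rises in Co+Len@OVA+anti-PD1 against Lenvatinib+anti-PD1 (0 in each with libraries 1 and 2 alone). The list summed to 9.71 to 22.3 FPKM in Co+Len@OVA+anti-PD1, 3.64 to 4.13 FPKM in Lenvatinib+anti-PD1 and 3.18 to 8.73 FPKM in Control, and no marker was at 0 in all libraries. Cd79a, a chain of the B cell receptor, was at 1.40, 6.11 and 3.69 FPKM, 0.966, 0.547 and 0.410 FPKM, and 0.895, 1.23 and 1.31 FPKM (adjusted p = 0.0566 for the first group against Control, limma). Ms4a1, which encodes CD20, was at most 0.755 FPKM and listed at 0 in Lenvatinib+anti-PD1 library 2.

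Of 12 plasma cell markers, 11 were tested, with 5 rises and 2 falls in Co+Len@OVA+anti-PD1 against Control, 0 rises and 2 falls in Lenvatinib+anti-PD1 against Control, and 6 rises and 1 fall between the treated groups (0, 0 and 1 rise with libraries 1 and 2 alone). Jchain, which joins IgM and IgA into polymers, was at 7.70, 9.58 and 8.56 FPKM in Co+Len@OVA+anti-PD1, 0.945, 2.21 and 1.86 FPKM in Lenvatinib+anti-PD1 and 1.97, 2.96 and 2.49 FPKM in Control. It rose against Control (1.62, adjusted p = 0.00208, limma). The highest members of the list, Xbp1, Txndc5 and Sdc1, are also expressed by hepatocytes and other secretory or epithelial cells. Xbp1 was at 46.2 to 60.3 FPKM in all libraries and did not pass in any comparison, and Sdc1 fell in Co+Len@OVA+anti-PD1 against Control (-0.58, adjusted p = 4.30e-04).

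Genes of V(D)J recombination, which builds the joined exon, rose in part. Of 9 tested, 6 rose in Co+Len@OVA+anti-PD1 against Control, 1 in Lenvatinib+anti-PD1 against Control and 5 between the treated groups, with 0 falls and 0 calls in libraries 1 and 2 alone. Of all genes, 20.9%, 13.8% and 17.3% rose in these comparisons. Members such as Xrcc5 and Xrcc6 were present in every library, at 8.19 to 11.5 and 4.81 to 7.49 FPKM. Rag1, a subunit of the recombinase, was at 10.3, 0.743 and 5.68 FPKM in Co+Len@OVA+anti-PD1 and at most 0.145 FPKM elsewhere, and Dntt, which adds bases at the joints, was at 10.1, 0.878 and 5.90 FPKM there and at most 0.267 FPKM elsewhere. Their highest library was the first, as for Ighv2-9-1 and Ighv5-16. These genes are also active in developing T cells, and Ptcra, the pre-T cell receptor chain, was at 0.945, 0 and 0.529 FPKM in that group, while the surrogate light chain gene Vpreb1 was at most 0.312 FPKM in any library. The pre-B cell gene Vpreb3 was at 0, 0.519 and 0.268 FPKM there and at most 0.135 FPKM elsewhere, so it was highest in library 2. Themis, a T cell signalling gene, was at 2.28, 1.20 and 1.69 FPKM there and at most 0.758 FPKM elsewhere, and Cd1d1, an antigen-presenting molecule, was at 4.49 to 5.31 FPKM there and highest in Lenvatinib+anti-PD1, at 8.22 to 9.75 FPKM. The pre-B and thymocyte genes were listed after values had been seen, and the source of Rag1 was not tested.

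Germinal centre genes rose in 3 of 5 tested against Control, led by Basp1 and Fas, and octamer factors, which bind the promoters of V segments, in 1 of 2, Pou2af1, at 0.945, 1.82 and 1.33 FPKM against 0.271, 0.614 and 0.749 FPKM (0.84, adjusted p = 0.0338, limma). Of 12 listed genes of B cell recruitment and survival 9 were tested, of which 3 rose and 1 fell in Co+Len@OVA+anti-PD1 against Control, 2 rose and 0 fell in Lenvatinib+anti-PD1 against Control, and 3 rose and 2 fell between the treated groups. The lymphotoxin gene Ltb, which supports lymphoid tissue, rose in both treated groups (28.4 to 43.5 and 26.1 to 30.9 FPKM against 7.74 to 14.4 FPKM). None of the germinal centre, octamer factor and recruitment lists had a call in libraries 1 and 2 alone.

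Light chain V levels had the same order of groups as the heavy chain, while T cell markers and the sum of lymph node stroma markers did not. The 90 kappa V rows summed to 166, 157 and 159 FPKM in Co+Len@OVA+anti-PD1, 11.4, 15.0 and 15.2 FPKM in Lenvatinib+anti-PD1, and 48.8, 70.8 and 66.9 FPKM in Control. The leading kappa row in Co+Len@OVA+anti-PD1, Igkv12-46, held 35.2%, 45.2% and 37.7% of that sum. Of 4 light constant genes, 2 rose in Co+Len@OVA+anti-PD1 against Control, 1 fell in Lenvatinib+anti-PD1 against Control, and 2 rose between the treated groups (0, 0 and 1 with libraries 1 and 2 alone). Igkc, the kappa constant gene, was among them each time, at 182 to 235, 20.8 to 33.7 and 55.0 to 64.9 FPKM in Co+Len@OVA+anti-PD1, Lenvatinib+anti-PD1 and Control. The 135 T cell receptor alpha and beta V rows had no such leader in that group, with 12.4% to 14.2% for the highest row. T cell markers rose in 9 of 11 cases in Co+Len@OVA+anti-PD1 against Control (0 with libraries 1 and 2 alone) and in 0 in Lenvatinib+anti-PD1 against Control, while the summed T cell receptor V level was 33.9 to 40.4 FPKM in Lenvatinib+anti-PD1, within the Control range of 12.6 to 62.3 FPKM. Blood markers rose in 5 of 5 cases tested in Co+Len@OVA+anti-PD1 against Control (0 with libraries 1 and 2 alone), with the 6 listed genes at 2063 to 2995 FPKM in total against 295 to 603 FPKM in Control and 176 to 433 FPKM in Lenvatinib+anti-PD1. The sum of lymph node stroma markers did not follow the V level, at 9.68 to 16.4 FPKM in Co+Len@OVA+anti-PD1, 5.77 to 6.77 FPKM in Control and 13.5 to 34.0 FPKM in Lenvatinib+anti-PD1, where the V level was lowest. Single markers differed. Ccl21a was at 2.97, 23.9 and 10.6 FPKM in Lenvatinib+anti-PD1, while Cxcl13 had the V order, with means of 1.61 FPKM in Co+Len@OVA+anti-PD1, 0.684 in Control and 0.333 in Lenvatinib+anti-PD1. Of 4 tested, 1 rose and 1 fell in Co+Len@OVA+anti-PD1 against Control, 3 rose and 0 fell in Lenvatinib+anti-PD1 against Control, and 1 rose and 2 fell between the treated groups. The part of blood or of lymphoid tissue in the V and J levels was not tested.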

How the data were processed

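RNA from 9 mouse tumour samples, 3 per group, was poly(A)-selected and sequenced as strand-marked (dUTP) paired reads of 150 bases, per the labels' protocols. The authors deposited FPKM per gene, fragments scaled by length and mapped total, in a table named as counts. Of tools, fastp, StringTie and edgeR appear per the submitters' processing notes, with no version. No aligner, build or annotation is named, each being not given in the sources used here. Coordinates and sequences come from GENCODE M21 on GRCm38, matched by Ensembl ID. Low FPKM values of genes with 1 transcript lay on whole-read steps in 14.4% to 17.2% of cases within a tolerance of 0.05, so reads were not recovered, depth is unknown, and no counting interval is given.

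Deposited FPKM were turned here into log2(FPKM + 0.5), a scale that understates the change of low genes, and tested with limma 3.58.1 in R 4.3.3 (empirical Bayes with trend and robust variance). Groups came from the sample titles. A single fit of 9 libraries with 6 residual degrees of freedom took the 15353 genes whose mean reached 0.5 FPKM, and Benjamini-Hochberg adjustment ran over all of them at 0.05. A fit without that filter took all 32761 genes, and a fit of libraries 1 and 2 of each group, with 3 residual degrees of freedom, left out the third libraries. Errors beside log2 fold changes are SE, and SDs are over 3 libraries. "Rose" and "fell" refer to the 9-library fit with the filter unless another is named. The labels do not say whether the 3 samples of a group share an animal, so p-values measure only the spread between these samples. Members and gene lists were chosen with earlier results of these data known. Named segments are the J rows, each library's leading V row, the 15 V rows of highest mean, up to 6 largest rises and falls past the threshold per comparison, and the 3 with the largest gap between replicates. Others were named after their values were seen. Alternatives covered pseudocounts, filters, scalings, variance models, a replicate block and each library left out. The fit was tested on simulated data. One list of B cell genes is not reported here.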

Additional observations from a re-analysis of the deposited data

How the results depend on the processing

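Direction and side of the threshold were kept in 1170 of 1353 repeats of the named segments' log2 fold changes under the alternatives run, 133 lost the call, 38 gained one and 12 changed sign, none of the 12 for a segment called in that comparison. With libraries 1 and 2 alone, an alternative with fewer samples, 1, 1 and 3 segments were called in Co+Len@OVA+anti-PD1 against Control, Lenvatinib+anti-PD1 against Control and Co+Len@OVA+anti-PD1 against Lenvatinib+anti-PD1, in place of 11, 11 and 17. A mean of at least 1 FPKM, which tested 17 of the 101 segments, left 7 calls in the second comparison and 11 in the third. Leaving out each library in turn gave 7 to 12, 6 to 16 and 12 to 22 calls. Sign changes were in Ighj3 in the first comparison (-0.0068 with a pseudocount of 0.1, -0.13 with median-of-ratios and -0.18 with upper quartile scaling, -0.37 to 0.22 with a library left out), Ighv1-50 there (-0.30 to 0.73 with a library left out), Ighv2-9-1 in the second (0.091 with libraries 1 and 2 alone), Ighv1-80 there (-0.84 to 0.021 with a library left out), and Ighv1-69 in the third (-0.095 to 0.65 with a library left out). The cause was not tested. The summed V level of Co+Len@OVA+anti-PD1 was 136 FPKM with median-of-ratios scaling, and its number of segments at 0.5 FPKM or more was 29.7. Without the 15 highest V segments the sums were 28.7, 4.06 and 21.4 FPKM in Co+Len@OVA+anti-PD1, Lenvatinib+anti-PD1 and Control, and without Ighv9-3 they were 60.6 and 7.07 FPKM in the first and second. Segments above 0 FPKM numbered 67.0, 25.3 and 59.3 on average and at 1 FPKM or more 17.0, 1.67 and 13.7. With Ighv9-3 left out the leading segment held 9.73% in Co+Len@OVA+anti-PD1 and 13.5% in Control. No pairing by replicate number was seen. Same-numbered libraries correlated at -0.248 to 0.0785 in their deviations from the group means, and differently numbered ones at up to 0.244. With 3 libraries a group these deviations depend on each other, so they cannot show that samples were unpaired. With the replicate number as a block, 10, 10 and 18 segments were called, and 4025, 2753 and 3307 genes in place of 5155, 3636 and 4507. Unknown depth, segments within 95% identity of another and reads that join V, D and J limit the single levels, and 38 of the 97 V segments never reached 0.5 FPKM.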
